A study of Mus musculus with 18 samples.

Results

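Primary mouse CD8+ T cells from spleen and lymph node in which either Cebpg or Atf4 had been targeted by CRISPR/Cas9 were compared after culture with halofuginone. The comparison set the 3 libraries of Cebpg knockout cells with the drug over the 3 libraries of Atf4 knockout cells with the drug. These are 6 of the study's 18 RNA-seq libraries, chosen by their labels, and all 14695 genes of the count table were tested. All groups had been cultured for 24 hours, and each was targeted at a single locus. The other 12 libraries held cells targeted at Rosa26, a neutral locus, with the drug, and the 3 genotypes without it, with 3 libraries in each of the 6 groups. The drug's dose and the share of cells that carried the edit were not given in the sources used here. Neither was whether replicates came from separate mice or cultures, so p-values measure the spread between these libraries, which may be technical. The counts come from whole cultures, in which fewer cells of a type and less RNA per cell cannot be told apart.

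ATF4 and C/EBPγ, the product of Cebpg, are basic leucine zipper (bZIP) transcription factors. When amino acids run short, uncharged tRNA activates the kinase GCN2, which phosphorylates the initiation factor eIF2α, slows general translation and raises translation of the Atf4 mRNA, a programme called the integrated stress response (ISR). ATF4 binds composite C/EBP-ATF elements as a dimer with partners that include C/EBPγ. The genes it switches on supply amino acids: aminoacyl-tRNA synthetases, transporters, and enzymes of asparagine, proline and serine synthesis. Halofuginone blocks the prolyl-tRNA synthetase activity of EPRS1 and so mimics a shortage of proline. The comparison asks how cells that lack the partner differ from cells that lack ATF4 under that stress. Higher means higher in Cebpg knockout than in Atf4 knockout cells throughout, and levels are CPM, the counts of a gene scaled to the size of its library with TMM factors (trimmed mean of M values).

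The halofuginone libraries held 14190361 to 20281602 counts each, and 3 of the 9 stood apart: replicate 3 of both knockouts and replicate 2 of Rosa26. In the knockouts, replicate 3 had the lowest share of counts from the 829 genes typed as unconfirmed transcripts, at 0.073% in Atf4 knockout and 0.151% in Cebpg knockout cells against 0.216% to 0.302% in the other 4 libraries. The first principal component of the deviations from the group means over the 9 libraries held 64.7% of their variance and placed the 3 libraries on one side. Replicate 2 of Cebpg knockout differed in another measure, with 7.28% of its counts from Rn18s-rs5, a ribosomal RNA gene, against 2.39% to 4.84% in the other 8. All 10 CD8 T cell markers were measured, and they summed to 3387 to 4240 CPM in Atf4 knockout and 3550 to 3837 CPM in Cebpg knockout cells. Of the markers of other cells, 2 of 14 myeloid genes were measured, with sums of 5.91 to 9.43 CPM in Atf4 knockout and 7.71 to 10.6 CPM in Cebpg knockout cells. The 7 of 12 B cell genes measured summed to 408 to 495 CPM and 440.3 to 493 CPM, nearly all of it Ighm. CD4 and regulatory T cell markers (5 of 7 measured) did not overlap, at 642 to 675 CPM in Atf4 knockout and 681 to 734 CPM in Cebpg knockout cells, most of it Il2ra, which activated CD8 T cells also express, and their part in the results was not tested. Markers of NK cells (2 of 8 measured, mostly Nkg7) summed to 256 to 334 CPM and 256 to 288 CPM, those of gamma-delta T cells (5 of 6) to 121 to 131 CPM and 116.5 to 125 CPM, and those of red cells and platelets (3 of 9) to 8.77 to 12.3 CPM and 7.085 to 12.6 CPM.

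**Figure D1:**
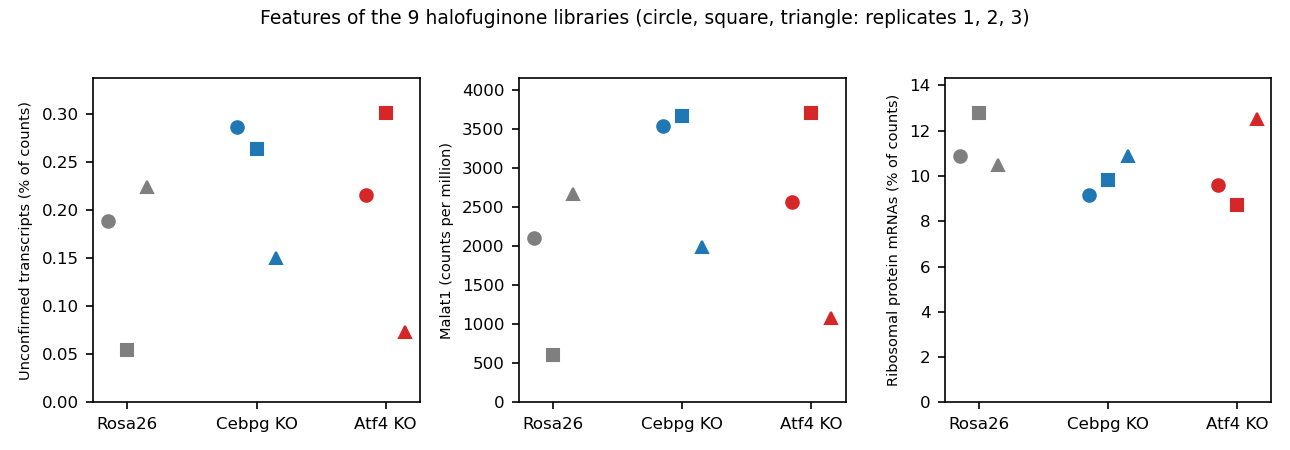
Share of counts from unconfirmed transcripts (percent, left), Malat1, a nuclear long RNA (CPM, middle), and share of counts from ribosomal protein genes (percent, right) in each of the 9 halofuginone libraries, with 1 point a library and 1 symbol a replicate number. Replicate 3 of both knockouts and replicate 2 of Rosa26 are lowest in their group for the first pair of measures and highest for ribosomal proteins.

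Of the targeted genes, Cebpg mRNA was at 93.4, 104 and 105 CPM in Cebpg knockout libraries and 132, 123 and 137 CPM in Atf4 knockout libraries, while Rosa26 cells had 169, 183 and 167 CPM. The 3 groups did not overlap, with Cebpg knockout cells lowest, but the difference between the knockouts (log2 fold change -0.36, SE 0.06, adjusted p = 0.14) did not pass edgeR's quasi-likelihood test with Benjamini-Hochberg adjustment, which is the test used throughout. In the fit of all 18 libraries, which takes its spread from the untreated libraries as well, it did (adjusted p = 0.0044). It did not pass in the paired fit described below. Atf4 mRNA was at 300.4, 299.8 and 346 CPM in Cebpg knockout and 300.1, 267 and 378 CPM in Atf4 knockout libraries, which overlapped (log2 fold change 0.02, SE 0.11, adjusted p = 0.99). Counts over a whole gene do not read an edited site, so the Atf4 mRNA level checks no label.

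Over all genes, 2 of 14695 passed the adjusted p threshold of 0.05 (0.0136%): Cars1, which was higher in Cebpg knockout cells, and Cacna1i, which was lower (0.00681% in each direction). At an unadjusted p under 0.05 there were 1309 genes (8.91%), of which 623 were higher (4.24%) and 686 lower (4.67%). The number of calls differed between fits. A fit of all 18 libraries called 147 genes (1.00%), 79 higher (0.538%) and 68 lower (0.463%). It shares 1 spread with the untreated libraries, whose replicates mostly differed less, so its p-values may be too small here. DESeq2 on the 9 halofuginone libraries called 140 (0.953% of all genes) and gave no adjusted p for 6838 of the 14695. Replicate 3 of both knockouts deviated together, while replicates 1 and 2 were not told apart by number. In Rosa26 cells replicate 2 stood apart instead, so replicate number did not follow this deviation across the genotypes. A fit of the 6 compared libraries with replicate number as a block is called the paired fit below. No label states a pairing, so its p-values rest on an assumed one. For genes of the lists below, an adjusted p of the paired fit is printed only where it passed. List genes named without one did not pass in that fit. It called 26 genes (0.177%), 12 higher (0.0817%) and 14 lower (0.0953%), of which 22 were among the 147. The same block in the fit of 9 libraries left 0 calls by edgeR, with 1047 genes at an unadjusted p under 0.05. A covariate for the share of unconfirmed transcripts, chosen after seeing the data, gave 907 calls (6.17%; 3.38% higher and 2.80% lower), which held 146 of the 147 with the same sign. The count was 2 without replicate 3 of both knockouts, 0 without replicate 1 of Atf4 knockout or without any 1 of the 3 Cebpg knockout libraries, and 1 without replicate 2 of Atf4 knockout.

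As a background for the gene groups that follow, all 3 Cebpg knockout libraries lay above all 3 Atf4 knockout libraries in 848 genes (5.77%) and below them in 1212 genes (8.25%). The median log2 fold change over all genes was 0.01.

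**Figure D2:**
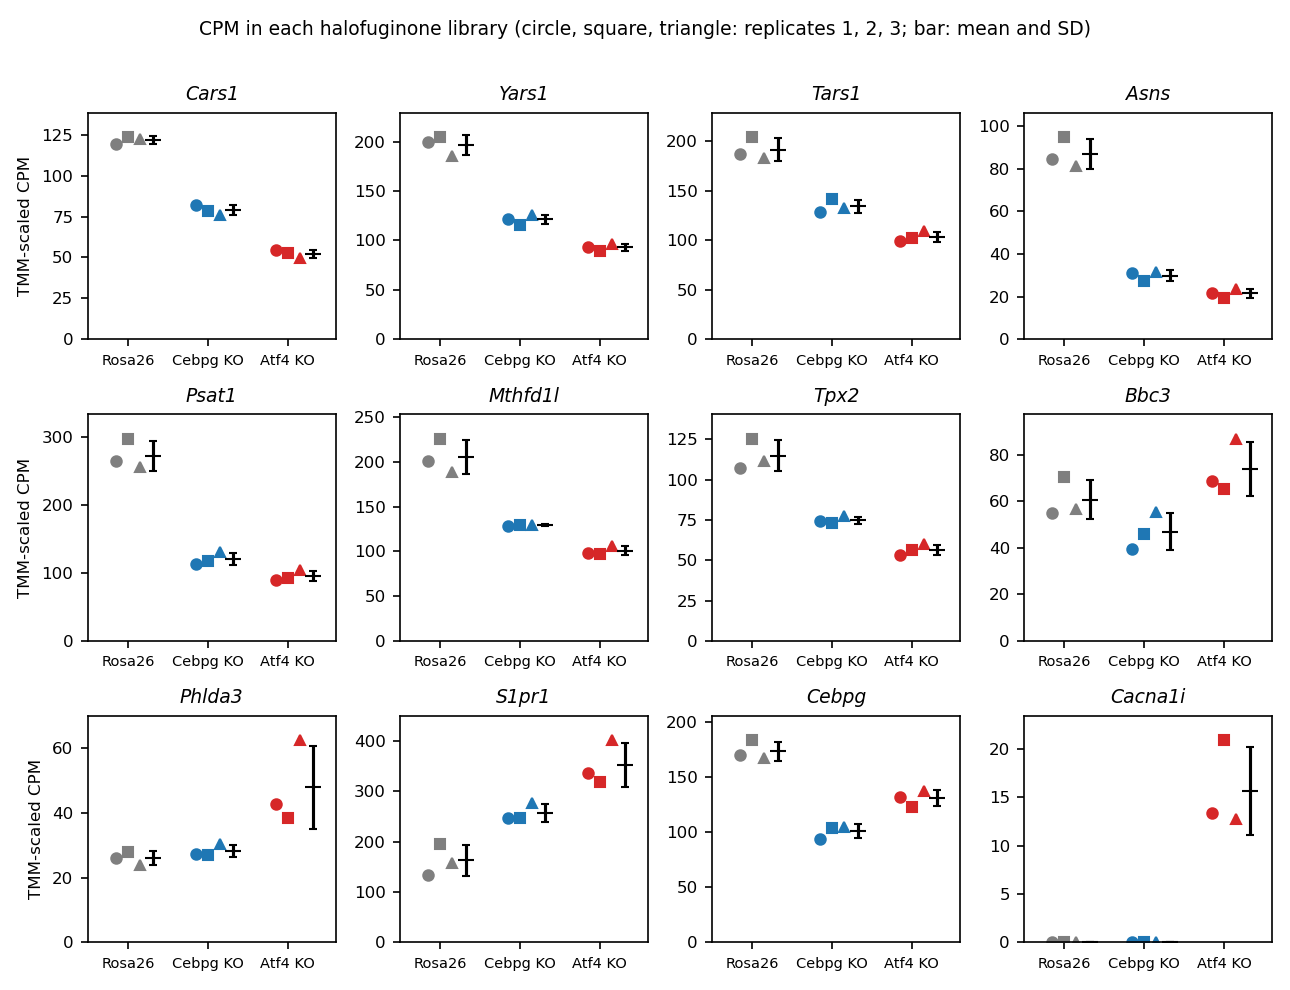
Level of 12 genes in the 9 halofuginone libraries (TMM-scaled CPM on linear axes from 0), with 1 point a library, 1 symbol a replicate number, and bars for the mean and SD of 3. In all 12 genes the 3 Cebpg knockout libraries do not overlap the 3 Atf4 knockout libraries, and Cars1 and Cacna1i passed the test.

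Cacna1i, which encodes a T-type voltage-gated calcium channel, had 217, 335 and 213 counts (13.3, 20.9 and 12.7 CPM) in the Atf4 knockout libraries and 0 counts in all 3 Cebpg knockout and all 3 Rosa26 libraries. It was at least 81.2-fold lower in Cebpg knockout cells, taking 3 counts per library as the limit that a count of 0 allows (adjusted p = 0.015). Without halofuginone it stood at 8.69, 8.43 and 9.01 CPM in Atf4 knockout and 0.0566, 0.403 and 0 CPM in Cebpg knockout cells (adjusted p = 9.5e-10), and in both treatments each Atf4 knockout library lay above each Cebpg knockout and Rosa26 library. The call was lost without replicate 1 of Atf4 knockout (adjusted p = 0.11), without any 1 Cebpg knockout library (0.068 to 0.086), and with the block in the fit of 9 libraries (0.14). It held in the paired fit (1.2e-05), and DESeq2 gave no adjusted p for this gene.

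In the order of protein-coding genes in RefSeq (GRCm38.p6), Cacna1i lies 2 places from Atf4. Rps19bp1, the gene between them, was at 18.8 ± 1.17 CPM (SD, n = 3) in Cebpg knockout and 17.9 ± 3.01 CPM in Atf4 knockout cells. Neither it nor Mief1 on the other side of Atf4 (log2 fold change 0.16, adjusted p = 0.72) nor Enthd1 and Grap2 beyond Cacna1i (-0.11 and 0.06) passed the test. Mgat3, 2 places from Atf4 on the side of Mief1, did not pass either. It was at 0.42 ± 0.14 CPM in Cebpg knockout and 0.96 ± 0.20 CPM in Atf4 knockout cells (log2 fold change -1.16, adjusted p = 0.49). Without the drug its log2 fold change was 0.52 (adjusted p = 0.74).

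Cytosolic aminoacyl-tRNA synthetases, which load amino acids onto tRNAs, held the called higher gene. Cars1, cysteinyl-tRNA synthetase, was at 82.1, 78.6 and 76.1 CPM in Cebpg knockout and 54.3, 52.7 and 49.6 CPM in Atf4 knockout libraries, with 119, 124 and 122 CPM in Rosa26 cells. The 3 groups did not overlap, and the knockouts differed by a log2 fold change of 0.61 (SE 0.07, adjusted p = 0.023) with halofuginone and 0.57 (adjusted p = 1.9e-09) without it. The call was lost in the fit of the 6 libraries alone (adjusted p = 0.25), with the block in the fit of 9 libraries (0.15) and without each library in turn except replicate 3 of Atf4 knockout (0.081 to 0.26), and it held in the paired fit (0.0091). Yars1, tyrosyl-tRNA synthetase, was at 122, 116 and 126 CPM against 92.9, 89.4 and 96.8 CPM in Atf4 knockout cells, again without overlap (log2 fold change 0.40, SE 0.06, adjusted p = 0.093, and 0.032 in the paired fit).

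Of the 21 cytosolic synthetases, 19 had log2 fold changes above 0 and 2 below, with a median of 0.21. In 10 of them (47.6%, beside 5.77% of all genes) the Cebpg knockout libraries all lay above the Atf4 knockout libraries, and in 0 did they all lie below. The test called 1 of the 21 by edgeR and 8 by DESeq2, with 12 higher and 0 lower at an unadjusted p under 0.05; the paired fit called 5, all of them higher. Beside Cars1 and Yars1 these were Nars1 (log2 fold change 0.46, adjusted p = 0.013 in the paired fit), Tars1 (0.39, 0.043) and Iars (0.35, 0.047), the synthetases for asparagine, threonine and isoleucine, named after their values were seen.

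Eprs1, which encodes the enzyme that halofuginone inhibits, did not separate the knockouts, at 306, 299.8 and 325 CPM against 309.8, 296 and 330.4 CPM, while Rosa26 cells had 565, 611 and 538 CPM (log2 fold change 0.01, SE 0.06, adjusted p = 0.99 between the knockouts). The 17 mitochondrial synthetases, which serve the organelle's own translation, lay near the background. In 1 of them (5.9%) the Cebpg knockout libraries all lay above, in 0 below, and the median was 0.07 (0.01 without replicate 1 of Cebpg knockout). By edgeR 0 were called, by DESeq2 0, and an unadjusted p under 0.05 was reached by 1 higher and 0 lower.

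**Figure D3:**
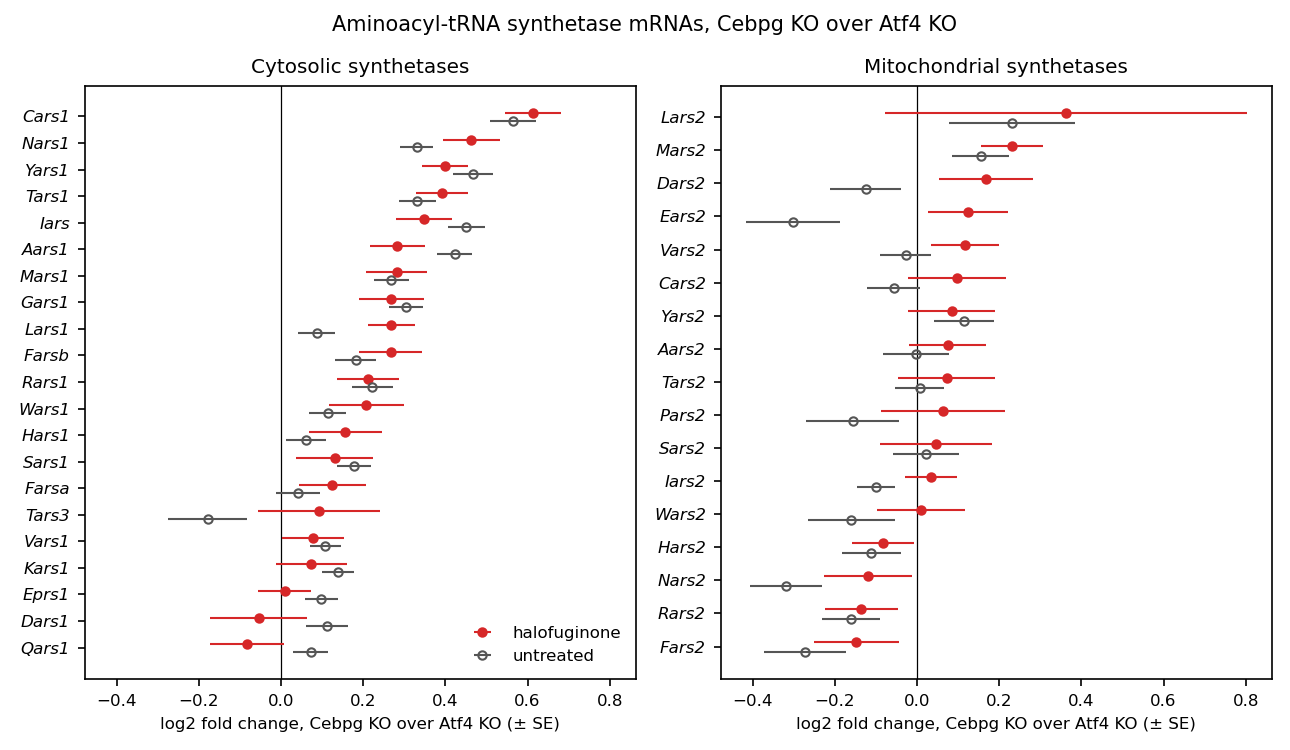
Log2 fold change (Cebpg knockout over Atf4 knockout, ± SE) of 21 cytosolic and 17 mitochondrial synthetases with halofuginone (filled) and without it (open). With the drug 19 of the 21 cytosolic genes lie above 0, led by Cars1 at 0.61, and Eprs1 lies at 0.01.

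The composite C/EBP-ATF element was looked for in the promoters of these genes as the letters TGATGNAA, on both strands, in the 250 bases before each start annotated in RefSeq (GRCm38.p6). Of 27025 genes with a promoter entry, 1056 (3.91%) held a match. Among measured genes with an entry, matches were found in 3 of 14 cytosolic synthetases (21.4%), 3 of 14 genes of asparagine, proline, alanine and glutamate metabolism (21.4%) and 7 of 29 ISR genes (24.1%). They were found in 0 of 14 mitochondrial synthetases, 0 of 16 serine and one-carbon genes and 0 of 15 amino acid transporters. Cars1 had no promoter entry and was not searched. A match describes letters in a window and is no sign of binding. The stretches below belong to genes described here, and they do not show whether a match goes with a higher level. Matched genes of these lists that are not shown are Aars1, Gars1, Got1, Atf3, Herpud1, Jdp2 and Vldlr. Of these Atf3 lay above without overlap, and in Herpud1, Jdp2 and Vldlr the knockouts overlapped. Overlap is not given here for Aars1, Gars1 and Got1, so the genes shown do not give the split among all matched genes. The first 5 genes lay above without overlap in Cebpg knockout cells, and in Pck2, which is shown beside them, the knockouts overlapped at a log2 fold change of -0.03. Each reads 5′ to 3′ on the gene's strand, and capitals mark the match, in the letters searched (Asns, Pycr1) or their reverse complement (Tars1, Nupr1, Chac1, Pck2).
Tars1 (chr15:11399659-11399719, minus strand): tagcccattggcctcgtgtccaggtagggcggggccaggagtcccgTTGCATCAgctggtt
Asns (chr6:7693210-7693278, minus strand): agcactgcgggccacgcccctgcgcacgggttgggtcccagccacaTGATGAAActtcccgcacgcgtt
Pycr1 (chr11:120643798-120643897, minus strand): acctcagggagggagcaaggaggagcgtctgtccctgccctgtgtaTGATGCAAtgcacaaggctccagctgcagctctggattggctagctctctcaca
Nupr1 (chr7:126625527-126625626, minus strand): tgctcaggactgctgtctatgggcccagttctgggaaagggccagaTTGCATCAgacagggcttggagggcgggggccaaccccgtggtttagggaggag
Chac1 (chr2:119351003-119351102, plus strand): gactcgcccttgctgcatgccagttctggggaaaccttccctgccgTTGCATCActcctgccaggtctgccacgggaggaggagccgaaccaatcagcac
Pck2 (chr14:55540117-55540216, plus strand): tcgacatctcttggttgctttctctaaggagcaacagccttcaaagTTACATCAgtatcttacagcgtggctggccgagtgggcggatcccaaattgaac
The match begins 15 bases before the start in Tars1, 23 in Asns, 103 in Pycr1, 110 in Nupr1, 193 in Chac1 and 103 in Pck2.

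Asparagine, proline, alanine and glutamate genes lay higher in part. Of 19 measured, 10 had log2 fold changes above 0 and 9 below, and 7 (36.8%) lay above without overlap against 0 below. Of the 19, 0 were called by edgeR and 4 by DESeq2, and 6 higher and 0 lower had an unadjusted p under 0.05. The paired fit called 0. Asns, asparagine synthetase, was at 31.1, 27.1 and 31.3 CPM in Cebpg knockout and 21.8, 19.3 and 23.4 CPM in Atf4 knockout libraries (log2 fold change 0.49, SE 0.09, adjusted p = 0.14). Rosa26 cells had 84.5, 94.8 and 81.3 CPM, well above both. Bcat1, the cytosolic branched-chain aminotransferase, was at 40.2, 37.3 and 33.5 CPM against 27.3, 25.6 and 27.1 CPM (0.49, SE 0.09, adjusted p = 0.13). Pycr1, which catalyses the last step of proline synthesis, was at 8.25, 6.25 and 6.67 CPM against 3.13, 3.50 and 4.30 CPM (0.97, SE 0.19, adjusted p = 0.17). Gpt2, the mitochondrial alanine aminotransferase, was at 17.5, 15.2 and 16.9 CPM against 11.98, 11.6 and 13.1 CPM (0.45, SE 0.09, adjusted p = 0.15). In none of these 4 genes did the knockouts overlap, and Pycr1 and Gpt2 were named after their values were seen. Without halofuginone all 4 were called higher, as were 7.05% of all genes, with log2 fold changes of 0.26, 0.38, 1.35 and 0.50 in the order given.

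In serine synthesis and one-carbon metabolism, which supply glycine and the carbon units of nucleotides, 16 of 19 genes were above 0 and 3 below, with a median of 0.23 (0.15 without replicate 1 of Atf4 knockout), and 6 (31.6%) lay above without overlap against 0 below. The test called 0 of the 19 by edgeR and 4 by DESeq2, with 9 higher and 0 lower at an unadjusted p under 0.05. Mthfd1l, a mitochondrial enzyme that releases formate, was at 129, 129.8 and 130.2 CPM in Cebpg knockout against 98.5, 97.7 and 107 CPM in Atf4 knockout libraries (log2 fold change 0.38, SE 0.06, adjusted p = 0.13, and 0.043 in the paired fit). Psat1, of the serine synthesis pathway, was at 113, 117 and 131 CPM against 89.3, 91.6 and 104 CPM (0.36, SE 0.07, adjusted p = 0.19, and 0.045 in the paired fit), with 264, 297 and 255 CPM in Rosa26 cells. Both genes separated the knockouts without overlap, as did Shmt2, the mitochondrial serine hydroxymethyltransferase (248, 232 and 256 against 184, 168 and 227 CPM; 0.37, SE 0.10, adjusted p = 0.31), which was named after its values were seen.

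Amino acid transporters lay above without overlap in a smaller share than cytosolic synthetases (47.6%) or serine and one-carbon genes (31.6%), and in a larger share than all genes (5.77%). Of 20 measured, 16 were above 0 and 4 below, the median was 0.10, and 5 (25%) lay above without overlap against 0 below. By edgeR 0 were called, by DESeq2 1, and an unadjusted p under 0.05 was reached by 7 higher and 0 lower. Slc1a4, a neutral amino acid exchanger, was at 22.3, 18.3 and 18.7 CPM against 12.8, 13.4 and 15.3 CPM (0.54, SE 0.11, adjusted p = 0.17), and Slc6a9, a glycine transporter, at 8.42, 8.24 and 8.82 CPM against 5.83, 4.62 and 7.99 CPM (0.48, SE 0.16, adjusted p = 0.4). Rosa26 cells had 29.3, 28.4 and 31.6 CPM of Slc6a9, so that both knockouts were far lower than the control. In the glutathione, cysteine and thioredoxin group edgeR called 0 of 21, with 5 higher and 0 lower at an unadjusted p under 0.05, and DESeq2 called 1. Txnrd1, thioredoxin reductase, had the smallest p among them (216, 209 and 209 against 164, 174 and 184 CPM; 0.30, SE 0.06, adjusted p = 0.17).

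The ISR effectors and feedback genes lay on both sides of 0. Of 32 measured, 14 were above 0 and 18 below, the median was -0.04 (0.04 without replicate 3 of Atf4 knockout), 4 (12.5%) lay above without overlap and 7 (21.9%) below. The test called 0 of the 32 by edgeR and 3 by DESeq2, with 5 higher and 5 lower at an unadjusted p under 0.05. The paired fit called 0 higher and 1 lower, which was Bbc3. Those below were Cebpg, Eif2ak3, Bbc3, Atf5, Ndrg1, Nfe2l2 and Ero1a, and those above were Nupr1, Atf3, Vegfa and Chac1. Eif2ak3, which encodes the stress kinase PERK, was at 126, 119 and 117 CPM in Cebpg knockout against 152, 154 and 157 CPM in Atf4 knockout cells (log2 fold change -0.34, SE 0.07, adjusted p = 0.17, and 0.0044 in the fit of 18 libraries). Atf5, a bZIP factor whose translation also rises under stress, was at 24.5, 23.6 and 26.4 CPM against 30.95, 30.96 and 40.6 CPM (-0.44, SE 0.12, adjusted p = 0.31), with 99.2, 115 and 86.3 CPM in Rosa26 cells. Trib3, a pseudokinase that restrains ATF4, was at 71.6, 73.98 and 87.9 CPM against 102, 84.7 and 119.5 CPM, which overlapped, with 309, 356 and 294 CPM in Rosa26 cells (-0.38, SE 0.11, adjusted p = 0.36). Atf5 and Trib3 thus had their lowest group mean in Cebpg knockout cells, whereas Cars1, Asns and Psat1 had theirs in Atf4 knockout cells.

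Nupr1, Atf3 and Chac1, of the ISR genes that lay above without overlap, were at a few CPM. Nupr1, a small stress-induced nuclear protein, was at 1.58, 1.17 and 1.74 CPM in Cebpg knockout and 0.430, 0.312 and 0.239 CPM in Atf4 knockout cells (log2 fold change 2.18, SE 0.43, adjusted p = 0.17). Atf3, a bZIP factor induced by ATF4, was at 2.95, 3.16 and 3.40 CPM against 2.21, 1.44 and 1.49 CPM (0.90, SE 0.25, adjusted p = 0.33), and Chac1, which degrades glutathione, at 2.29, 2.33 and 2.85 CPM against 1.84, 2.06 and 1.67 CPM (0.43, SE 0.20, adjusted p = 0.57). None of the 3 overlapped between the knockouts, and none passed the test. Ddit3, which encodes the apoptosis-linked factor CHOP, overlapped (31.2, 29.2 and 39.3 against 36.5, 30.4 and 40.03 CPM; -0.09, SE 0.14, adjusted p = 0.95). Pck2, the mitochondrial phosphoenolpyruvate carboxykinase, also overlapped, at 11.7, 10.9 and 13.4 CPM against 11.5, 11.9 and 13.9 CPM (-0.03, SE 0.11, adjusted p = 0.98), and Rosa26 cells had 50.02, 59.9 and 57.3 CPM. Among 37 bZIP factors other than the targets, edgeR called 0 of 37, with 4 higher and 6 lower at an unadjusted p under 0.05, and DESeq2 called 1. Fosl2, a subunit of AP-1, was at 118, 109 and 121 CPM against 139.8, 164 and 174 CPM (-0.44, SE 0.08, adjusted p = 0.14, and 0.047 in the paired fit), without overlap.

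Targets of p53, the factor that arrests or kills damaged and stressed cells, lay lower in Cebpg knockout cells. Of 17 measured, 2 were above 0 and 15 below, the median was -0.22, and 8 (47.1%, beside 8.25% of all genes) lay below without overlap against 1 above. Of the 17, 0 were called by edgeR and 5 by DESeq2, and 2 higher and 8 lower had an unadjusted p under 0.05; the paired fit called 4, all of them lower. Trp53inp1, which promotes autophagy and cell death, was at 218, 219.6 and 228 CPM in Cebpg knockout and 286, 281 and 290.1 CPM in Atf4 knockout libraries (log2 fold change -0.35, SE 0.05, adjusted p = 0.093, and 0.045 in the paired fit). Phlda3, an inhibitor of AKT, was at 27.3, 27.04 and 30.4 CPM against 42.7, 38.6 and 62.5 CPM (-0.74, SE 0.15, adjusted p = 0.17, and 0.026 in the paired fit). Ccng1, cyclin G1, named after its values were seen, was at 294, 326 and 357 CPM against 435, 408 and 582 CPM (-0.53, SE 0.12, adjusted p = 0.23, and 0.032 in the paired fit). The knockouts overlapped in none of these 3, and replicate 3 of Atf4 knockout was the highest library of each. Cdkn1a, which encodes the cell cycle inhibitor p21, overlapped (47.2, 47.5 and 54.8 against 52.3, 55.2 and 62.9 CPM; -0.17, SE 0.09, adjusted p = 0.66).

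In the BCL2 family, which sets the threshold for mitochondrial cell death, 3 of 13 genes were above 0 and 10 below, and 6 (46.2%) lay below without overlap against 0 above. The test called 0 of the 13 by edgeR and 2 by DESeq2, with 0 higher and 4 lower at an unadjusted p under 0.05. Bbc3, which encodes the death-promoting protein PUMA and also belongs to the p53 and ISR lists, was at 39.5, 46.05 and 55.4 CPM in Cebpg knockout and 68.8, 65.4 and 87.05 CPM in Atf4 knockout libraries (log2 fold change -0.64, SE 0.14, adjusted p = 0.19, and 0.013 in the paired fit). Pmaip1, which encodes the death-promoting NOXA, was at 25.2, 24.1 and 28.8 CPM against 36.7, 33.5 and 34.5 CPM (-0.41, SE 0.09, adjusted p = 0.2). The 6 genes were not of one function: Bbc3, Pmaip1, Bcl2l11 and Bmf promote cell death, while Mcl1 and Bcl2 oppose it. Mcl1 was at 402, 418 and 444 CPM against 479.6, 459.9 and 562 CPM (-0.23, SE 0.08, adjusted p = 0.4).

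Cell division genes separated the knockouts most often of the 35 groups. All 28 mitosis and spindle genes had log2 fold changes above 0, with a median of 0.27, and 17 (60.7%, beside 5.77% of all genes) lay above without overlap against 0 below. By edgeR 0 were called, by DESeq2 8, and an unadjusted p under 0.05 was reached by 22 higher and 0 lower; the paired fit called 1 and the fit of 18 libraries 8. Tpx2, a spindle assembly factor, was at 74.2, 72.8 and 77.4 CPM in Cebpg knockout and 53.4, 56.3 and 59.8 CPM in Atf4 knockout libraries (log2 fold change 0.42, SE 0.07, adjusted p = 0.11, and 0.043 in the paired fit). Plk1, a mitotic kinase, was at 40.8, 39.8 and 41.4 CPM against 30.95, 30.2 and 30.96 CPM (0.42, SE 0.07, adjusted p = 0.11). For both the knockouts did not overlap, and Rosa26 cells were highest, at 107 to 126 CPM of Tpx2 and 54.1 to 61.2 CPM of Plk1. In 27 of the 28 genes the group means fell in that order, from Rosa26 through Cebpg knockout to Atf4 knockout cells, as they did in 24.7% of all genes.

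DNA replication genes lay the same way, with 28 of 31 above 0, a median of 0.15, and 7 (22.6%) above without overlap against 0 below. Of the 31, 0 were called by edgeR and 3 by DESeq2, and 11 higher and 0 lower had an unadjusted p under 0.05. Lig1, the replicative DNA ligase, was at 123, 121 and 129 CPM against 101, 96.4 and 107 CPM (0.32, SE 0.07, adjusted p = 0.19), and Mcm10, a replication initiation factor, at 44.9, 39.4 and 40.8 CPM against 34.6, 33.2 and 32.99 CPM (0.33, SE 0.07, adjusted p = 0.21). Neither overlapped between the knockouts. Recql4, a helicase with a role in replication, which is outside the lists and was named after its values were seen, was at 20.1, 22.9 and 22.99 CPM against 12.8, 14.4 and 15.5 CPM (0.64, SE 0.09, adjusted p = 0.093, and 0.043 in the paired fit). Of 25 nucleotide synthesis genes, 5 (20%) lay above without overlap, and edgeR called 0 of 25, with 8 higher and 0 lower at an unadjusted p under 0.05, and DESeq2 called 1. Tk1, thymidine kinase, was at 38.03, 41.6 and 41.7 CPM against 26.7, 27.6 and 34.8 CPM (0.46, SE 0.10, adjusted p = 0.19). The share of unconfirmed transcripts, which replicate 3 of each knockout held lowest, was a covariate chosen after seeing the data. The fit with this covariate called 907 genes (6.17% of all genes, 3.38% higher and 2.80% lower). It called 21 of the 28 mitosis, 14 of the 31 replication and 12 of the 25 nucleotide genes, all of them higher.

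**Figure D4:**
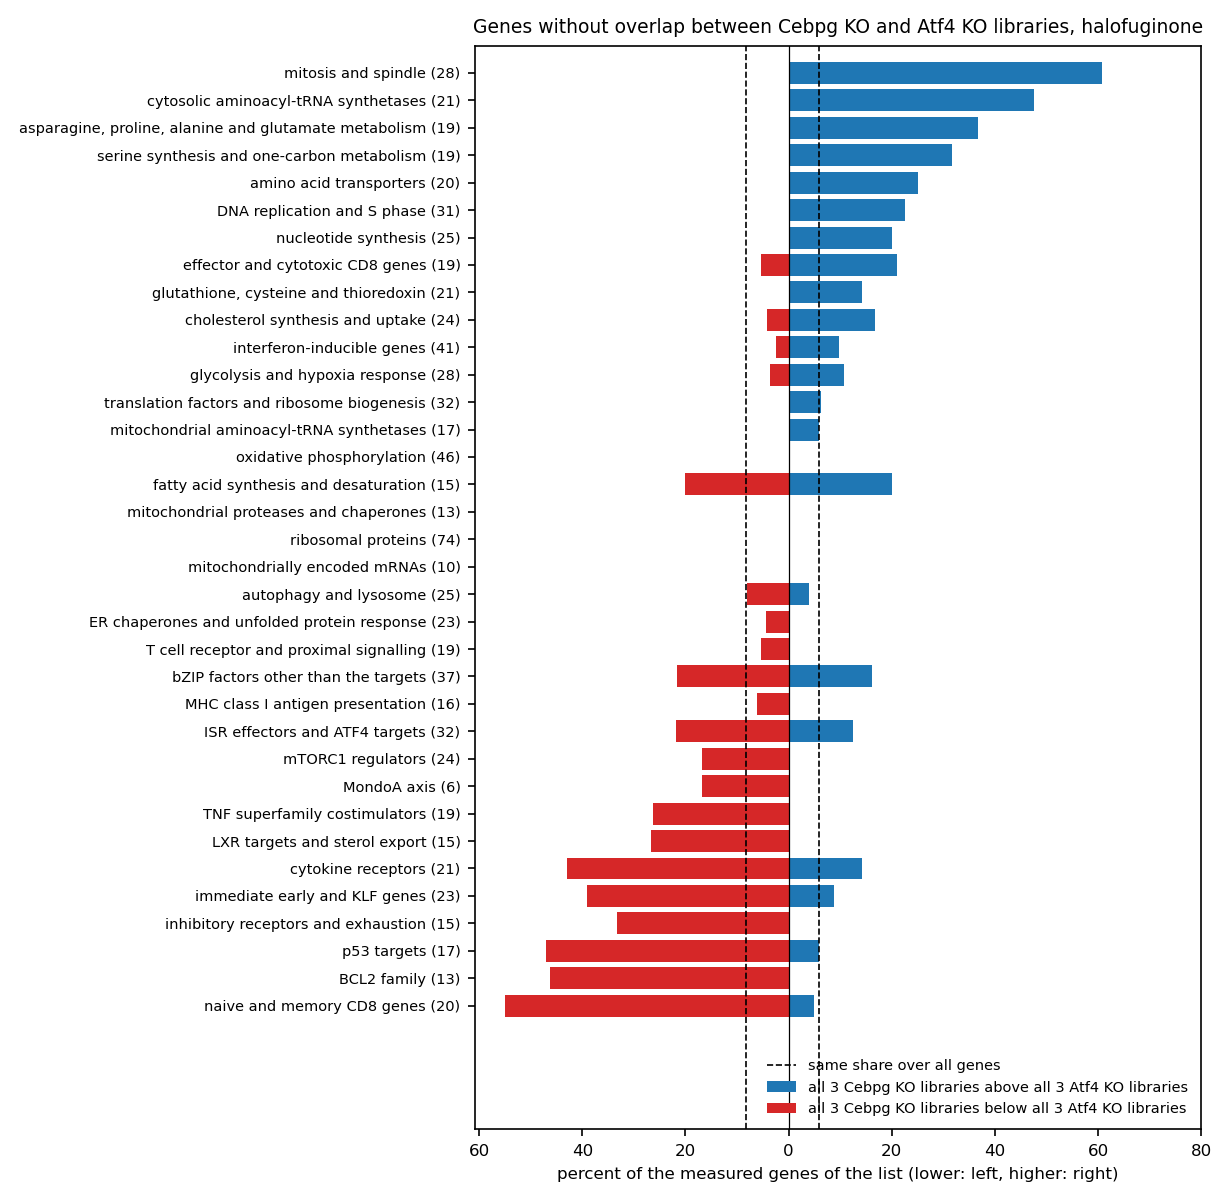
For each of 35 gene groups, percent of its measured genes in which all 3 Cebpg knockout libraries lie above (right) or below (left) all 3 Atf4 knockout libraries with halofuginone; dashed lines mark the shares over all genes (5.77% and 8.25%). Mitosis (60.7%) and cytosolic synthetases (47.6%) reach furthest above, and naive and memory genes (55%), p53 targets (47.1%) and the BCL2 family (46.2%) furthest below.

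Genes of naive and memory CD8 T cells, such as homing receptors and the transcription factors of quiescent cells, lay lower in Cebpg knockout cells. Of 20 measured, 4 were above 0 and 16 below, the median was -0.17, and 11 (55%) lay below without overlap against 1 above. By edgeR 0 were called, by DESeq2 2, and an unadjusted p under 0.05 was reached by 1 higher and 9 lower. S1pr1, the receptor by which T cells leave lymph nodes, was at 247, 247 and 276 CPM against 336, 319 and 401 CPM (log2 fold change -0.44, SE 0.12, adjusted p = 0.31, and 0.026 in the paired fit). Il6ra, the interleukin 6 receptor, was at 15.1, 17.2 and 14.7 CPM against 21.7, 20.3 and 23.6 CPM (-0.46, SE 0.10, adjusted p = 0.21). Klf2, a factor that drives S1pr1, named after its values were seen, was at 192, 198 and 238 CPM against 287, 243 and 301 CPM (-0.39, SE 0.12, adjusted p = 0.36). The knockouts overlapped in none of the 3. In 17 of the 20 genes the group mean was highest in Atf4 knockout, lower in Cebpg knockout and lowest in Rosa26 cells, an order found in 25.2% of all genes.

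Receptors and early response genes lay lower in smaller numbers. Of 21 cytokine receptors, 9 (42.9%) lay below without overlap and 3 above, and edgeR called 0 of 21, with 3 higher and 6 lower at an unadjusted p under 0.05, and DESeq2 called 3. Tgfbr2, a receptor for TGF-β, was at 211, 209 and 217 CPM against 258, 245 and 286 CPM (-0.29, SE 0.07, adjusted p = 0.29). Of 19 costimulators of the TNF superfamily, 5 (26.3%) lay below and 0 above, and edgeR called 0 of 19, with 0 higher and 4 lower at an unadjusted p under 0.05, and DESeq2 called 2. Tnfsf8, the ligand of CD30, was at 282, 280.1 and 289 CPM against 355, 332 and 372 CPM (-0.30, SE 0.06, adjusted p = 0.19). Of 23 immediate early and KLF genes, 9 (39.1%) lay below and 2 above, and edgeR called 0 of 23, with 1 higher and 6 lower at an unadjusted p under 0.05, and DESeq2 called 2. Klf3, a transcriptional repressor, was at 98.3, 94.4 and 107 CPM against 126, 119 and 129 CPM (-0.31, SE 0.07, adjusted p = 0.23). Of 15 inhibitory receptor and exhaustion genes, 5 (33.3%) lay below and 0 above, and edgeR called 0 of 15, with 0 higher and 2 lower at an unadjusted p under 0.05, and DESeq2 called 0. Ctla4, an inhibitory receptor, was at 243, 251 and 261 CPM against 285, 294 and 402 CPM (-0.36, SE 0.11, adjusted p = 0.38), with replicate 3 of Atf4 knockout highest. The paired fit called 0 genes in these 4 lists.

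Of 19 effector and cytotoxic genes, 12 were above 0 and 7 below, and 4 (21.1%) lay above without overlap against 1 (5.3%) below. The median was 0.10 and ran from -0.02 without replicate 1 of Atf4 knockout to 0.19 without its replicate 3, and edgeR called 0 of 19, with 2 higher and 1 lower at an unadjusted p under 0.05, and DESeq2 called 1. Without the drug 5 of the 19 were called higher and 1 lower, beside 7.05% and 5.23% of all genes. Cxcr6, a chemokine receptor of tissue-homing T cells, was at 25.4, 22.5 and 27.6 CPM against 33.8, 32.6 and 44.7 CPM (-0.54, SE 0.13, adjusted p = 0.24, and 0.047 in the paired fit). Zfp683, which encodes the residency factor HOBIT, was at 5.41, 4.53 and 3.54 CPM against 2.58, 3.06 and 2.03 CPM (0.83, SE 0.25, adjusted p = 0.36). The first lay below and the second above, each without overlap. Lif, a cytokine outside the lists that was named after its values were seen, was at 102, 92.8 and 94.7 CPM against 52.5, 67.97 and 55.6 CPM (0.74, SE 0.14, adjusted p = 0.17, and 0.021 in the paired fit).

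Lipid genes were read in 3 lists, none of which had a call by edgeR. Of 24 genes of cholesterol synthesis and uptake, 20 were above 0 and 4 below, and 4 (16.7%) lay above without overlap against 1 below. By edgeR 0 were called, by DESeq2 0, and an unadjusted p under 0.05 was reached by 5 higher and 1 lower. Of 15 genes of fatty acid synthesis and desaturation, 9 were above 0 and 6 below, and 3 (20%) lay above and 3 below without overlap. Of the 15, 0 were called by edgeR and 1 by DESeq2, and 3 higher and 2 lower had an unadjusted p under 0.05. Of 15 targets of the sterol sensor LXR, 4 were above 0 and 11 below, and 4 (26.7%) lay below without overlap against 0 above. The test called 0 of the 15 by edgeR and 0 by DESeq2, with 0 higher and 4 lower at an unadjusted p under 0.05, and the median of -0.16 became -0.03 with genes under a mean of 2 CPM left out and -0.13 to -0.07 with 1 knockout library left out. Abca1, a cholesterol exporter, was at 9.56, 8.85 and 9.79 CPM against 12.4, 13.7 and 16.4 CPM (-0.57, SE 0.16, adjusted p = 0.34). Glycolysis genes had 3 of 28 above without overlap and 1 below, and edgeR called 0 of 28, with 4 higher and 1 lower at an unadjusted p under 0.05, and DESeq2 called 1. Hk2, a hexokinase, was at 42.95, 44.9 and 46.8 CPM against 38.3, 36.8 and 36.6 CPM (0.29, SE 0.07, adjusted p = 0.24). Ribosomal protein genes (74 measured), nuclear genes of oxidative phosphorylation (46) and mitochondrially encoded mRNAs (10) had 0 genes without overlap in either direction. For these 3 lists edgeR called 0, with 0 at an unadjusted p under 0.05, DESeq2 called 0, and the medians were -0.06, 0.03 and 0.23. Single libraries changed the sign of the first 2 medians, and the size but not the sign of the third. Without replicate 3 of Atf4 knockout the medians were 0.17, 0.18 and 0.51, and without replicate 2 of the same group -0.20, -0.09 and 0.14.

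The same knockouts were compared without halofuginone, in 9 libraries that share none with those above. There 1804 genes were called (12.3%), 1036 higher (7.05%) and 768 lower (5.23%). With halofuginone 1496 of them (82.9%) had the same sign, beside 56.1% of the genes not called without it. In 486 of the 1804 the knockouts did not overlap with the drug and lay in the same direction, against 37 in the opposite direction. Their median absolute log2 fold change without the drug was 0.25, and with it the median of the same genes, signed by the untreated direction, was 0.12. Since the genes were chosen by the untreated value, which favours a larger first median, these medians do not show a smaller difference with the drug. Pearson's r between both sets of log2 fold changes was 0.52 across these 1804 genes and 0.13 across all genes, a description only, since genes are not independent and the 1804 were chosen by the untreated value. All 28 mitosis genes, 24 of 31 replication genes and 12 of 21 cytosolic synthetases were called higher without the drug, and 10 of 17 p53 targets and 13 of 20 naive and memory genes were called lower. Each of these groups had medians on the same side of 0 in both treatments. The cholesterol genes had 17 of 24 called higher without the drug, with a median of 0.33 against 0.14 with it.

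Whether the knockouts differed in another way with the drug than without it was tested in all 18 libraries. Only Scd2 and Gm17767 passed (2 genes, 0.0136%, with 0.00681% in each direction), with 990 genes at an unadjusted p under 0.05. Scd2, a stearoyl-CoA desaturase, was at 324, 319.8 and 347 CPM in Cebpg knockout and 374, 365 and 425 CPM in Atf4 knockout cells with halofuginone and at 283, 321 and 321 against 227, 232 and 233 CPM without it. It lay lower with the drug (log2 fold change -0.21, adjusted p = 0.4) and was called higher without it (0.40, 5.1e-09), a difference of -0.65 (SE 0.10, adjusted p = 0.021). That call was lost in 6 of the 12 fits with 1 knockout library left out (adjusted p 0.096 to 0.14): each of the 3 untreated Atf4 knockout libraries, replicates 2 and 3 of untreated Cebpg knockout and replicate 1 of Cebpg knockout with the drug. The call of Gm17767 was lost in 0 of the 12. Trib3 had log2 fold changes of 0.30 without the drug (adjusted p = 0.002) and -0.38 with it, and the difference of -0.71 (SE 0.16) did not pass (adjusted p = 0.26). For Cars1 the difference was 0.02 (SE 0.08, adjusted p = 0.98).

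**Figure D5:**
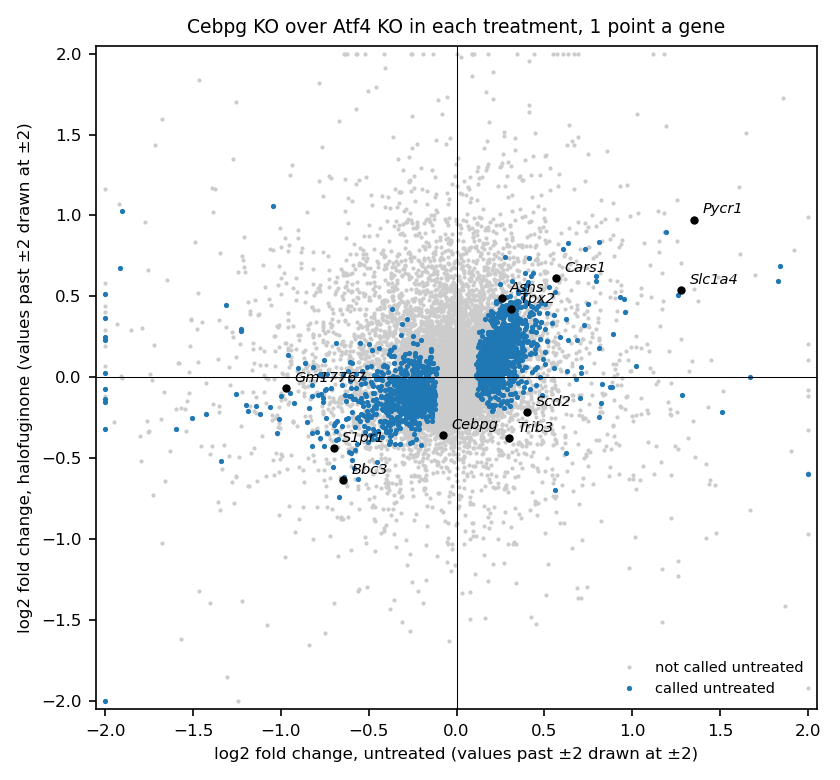
Log2 fold change of each gene, Cebpg knockout over Atf4 knockout, without halofuginone (x axis) and with it (y axis); values past ±2 are drawn at ±2, and blue points are the 1804 genes called without the drug. Of the blue points 1496 lie in the lower left and upper right quadrants, and Scd2 lies at lower right.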

How the data were processed

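Poly-A RNA was sequenced from directional libraries made with dUTP, per the labels' protocols, and the authors deposited raw counts per gene. The submitters' processing notes name FastQC, MultiQC, Trimmomatic, STAR, HTSeq, edgeR and build GRCm39, without versions; no source used here states how strand was treated in counting. The table held 14695 genes and no further filter was applied; of 449 blank names 431 were filled from gene identifiers, and 8 names occurred more than once. Counts were fitted with edgeR 4.0.16 (R 4.3.3; robust quasi-likelihood F test, TMM scaling, Benjamini-Hochberg adjustment over all genes, threshold 0.05) on the 9 halofuginone libraries, the 9 untreated libraries, or all 18 for the difference between treatments, and the code was tested on simulated data. Halofuginone libraries of 14190361 to 20281602 counts set the counting precision. DESeq2 1.42.0, limma 3.58.1 (voom), other scalings, a filter at a mean of 2 CPM, a replicate block and leaving out libraries were the alternatives. The covariate fits, the voom fit and the fit without replicate 2 of Rosa26 were chosen after seeing the data.

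Replicates of a group were no copies of each other, since counts of pairs differed beyond sampling noise (chi-square per degree of freedom 2.01 or more). Within the knockout groups that value was 2.01 to 6.65 without the drug and 6.28 to 41.5 with it. Deviations from the group means correlated between same-numbered Atf4 and Cebpg knockout libraries with halofuginone (r = 0.25, 0.25 and 0.53). The paired fit took these as paired, which no label states. Crossed pairs of replicates 1 and 2 also correlated. The value was 0.13 for replicate 1 of Atf4 knockout with replicate 2 of Cebpg knockout, and 0.36 the other way round. Among the knockouts only replicate 3 was thus told apart by its number, and in Rosa26 cells with the drug replicate 2 stood apart instead. Untreated libraries did not pair (0.06, -0.01 and -0.05).

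The genes named are Atf4, Cebpg, called genes with a mean of at least 5 CPM in a group and no overlap (up to 15 each way), the members of each list with the smallest p (2 where fewer passed), and ISR genes; all other genes were named after their values were seen. Cacna1i meets this rule. A gene that the rule selects is not reported here. The comparison and the gene lists were chosen with earlier results of these data known.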

Additional observations from a re-analysis of the deposited data

Results flagged for a closer look

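For 2 genes the difference between the knockouts was not the same with halofuginone as without it, by the test over all 18 libraries. For Scd2, a stearoyl-CoA desaturase of lipid synthesis, the log2 difference between treatments was -0.65 (adjusted p = 0.021, edgeR), a call lost in 6 of the 12 fits with 1 knockout library left out (adjusted p up to 0.14). The Cebpg knockout libraries all lay below the Atf4 knockout libraries with the drug and all above them without it. For Gm17767, a predicted gene, the difference was 0.87 (SE 0.10, adjusted p = 0.00073), and the call was lost in 0 of those 12 fits (adjusted p up to 0.0073). It was at 279, 274 and 297 CPM in Cebpg knockout and 291, 284 and 324 CPM in Atf4 knockout cells with the drug (log2 fold change -0.06) and at 47.8, 50.5 and 48.6 against 93.7, 97.4 and 93.9 CPM without it (-0.97, adjusted p = 9.4e-15). The knockouts overlapped with the drug for Gm17767, and without it they were well apart. Since the strand setting is unknown, reads of Gm17767 and of any gene that overlaps it cannot be told apart.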

How the results depend on the processing

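The count of genes called with halofuginone (2) became 1 in the fit of the 6 compared libraries, 147 in the fit of all 18, 4 with upper-quartile scaling, 140 by DESeq2, 10 with the filter at a mean of 2 CPM, 1 when tested against a fold of 1.2, and 0 to 2 with 1 library left out. With the replicate block it became 0 in the fit of 9 libraries and 26 in the fit of 6. Of the alternatives added after seeing the data, the covariate for unconfirmed transcripts gave 907 calls (1108 in the fit of 6 libraries) and voom with quality weights 288. The share of calls that were higher was 50% in the reported fit, 75% with upper-quartile scaling and 80% with the filter. Scaling with relative log expression and leaving out replicate 2 of Rosa26 left 2 calls each.

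Without the drug the 1804 calls became 488 in the fit of 18 libraries, 2246 with the replicate block and 1243 to 1702 with 1 library left out. The 2 calls for the difference between treatments became 11 with upper-quartile scaling, 40 by DESeq2, 8 with the filter, 160 with the covariate, 2 with the replicate block and 1 to 4 with 1 library left out. The cause of these shifts was not tested.

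Of the 117 genes followed, some near 0 changed sign; DESeq2 gave an adjusted p for 97 of them and the filter left 112. With 1 library left out the log2 fold changes ran from -0.07 to 0.15 for Atf4, -0.23 to 0.02 for Cd247, -0.24 to 0.04 for Cebpb, -0.15 to 0.06 for Eif2ak4, -0.03 to 0.03 for Eprs1, -0.12 to 0.04 for Pck2, -0.19 to 0.07 for Ppp1r15a and -0.01 to 0.11 for Tspyl2. Values of the opposite sign were also 0.00 (Eprs1) and 0.04 (Ppp1r15a) without replicate 3 of both knockouts, 0.00 (Pck2) and 0.01 (Ppp1r15a) with the covariate, 0.02 and 0.03 for the same genes in its fit of 6 libraries, 0.03 (Cebpb) with voom and -0.01 (Eprs1) in the fit of 18 libraries. No other sign changed among the values obtained. The paired fit, with its replicate block, called 16 of the 117 that the reported fit did not, and the block in the fit of 9 libraries ended the calls of Cars1 and Cacna1i. Genes of a few CPM, such as Nupr1, Atf3 and Chac1, rest on few counts.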
